A study of Mus musculus with 8 samples.

Results

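The myosin heavy chain isoforms of striated muscle were followed in white quadriceps, the pale and fast portion of the thigh muscle, of male mice aged 11 to 14 weeks that ate standard chow (Purina 5001). The 8 genes Myh1, Myh2, Myh3, Myh4, Myh6, Myh7, Myh7b and Myh8 were taken by name from a table of 54091 genes. All 8 were among the 13638 genes with enough reads to be tested. The Cre group held 4 animals in which a Cre recombinase under the muscle creatine kinase promoter (CKM Cre) removed Acot2, a mitochondrial acyl-CoA thioesterase, in muscle. The Loxp group held 4 animals with the genotype Loxp/Loxp. The Loxp label names no Cre, so the effects of the recombinase and of the loss of Acot2 cannot be told apart. Each of the 8 libraries carries its own animal number. The muscle was taken in the morning, and stranded libraries were made from total RNA.

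Libraries held 30415426 to 48834264 reads. Acot2 had 43.8, 42.8, 53.7 and 48.9 normalized reads in Cre replicates 1 to 4, against 213, 149, 251 and 240 in Loxp replicates 1 to 4, so the groups did not overlap. A normalized read is a read count divided by the authors' scaling factor for the library. Skeletal muscle fibre markers (Acta1, Ckm, Tnnt3, Mylpf, Atp2a1 and Ttn) summed to between 6145830 and 8077870 normalized reads in every library.

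A myosin heavy chain is the motor of the thick filament: its head splits ATP and pulls on actin, and its long tail winds into a coil with a second chain and packs into the filament. Each adult limb fibre is built mainly from 1 or a few of the isoforms, and the isoform sets how fast the fibre shortens. Myh4 (type IIb), Myh1 (IIx) and Myh2 (IIa) are the fast isoforms in falling order of speed, and Myh7 (type I, beta) is the slow isoform of oxidative fibres and of the heart ventricle. Myh6 (alpha) is the main isoform of the adult mouse heart, Myh3 and Myh8 are the embryonic and perinatal isoforms, and Myh7b is an ancient relative of Myh7 expressed at low level in heart and slow muscle.

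The genes lie at 3 loci of GRCm38 in the GENCODE M21 annotation. Myh3 (chr11:67078300-67102291), Myh2 (chr11:67171027-67197517), Myh1 (chr11:67200052-67224575), Myh4 (chr11:67238029-67260446) and Myh8 (chr11:67277124-67308634) follow each other on the plus strand. Myh6 (chr14:54941921-54966927) and Myh7 (chr14:54970684-54994626) are neighbours on the minus strand. Myh7b (chr2:155611212-155634307) lies alone on the plus strand.

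Their coding sequences are close enough that the letters decide how well short reads can be assigned. Myh1 was 90.94% identical to Myh2 and 90.09% identical to Myh4 over the aligned coding bases, and Myh2 was 88.2% identical to Myh4. Myh6 and Myh7 were 91.66% identical. Myh7b stood apart, at 68.83% to 71.95% identity with the other genes. A stretch of 60 coding bases is shown for the 3 fast isoforms because it holds many of the differences by which a read can be told apart. It lies in exon 28 of Myh4 (chr11:67254458-67254517), exon 29 of Myh1 (chr11:67217464-67217523) and exon 28 of Myh2 (chr11:67191348-67191407), all on the plus strand of GRCm38. Capitals mark the 24 positions at which the 3 genes are not all alike.
Myh4: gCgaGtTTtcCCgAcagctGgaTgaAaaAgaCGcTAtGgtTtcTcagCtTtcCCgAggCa
Myh1: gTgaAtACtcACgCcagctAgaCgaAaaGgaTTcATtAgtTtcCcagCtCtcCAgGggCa
Myh2: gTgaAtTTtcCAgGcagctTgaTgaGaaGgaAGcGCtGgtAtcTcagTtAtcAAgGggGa
In this stretch Myh1 differed from Myh4 at 18 positions and Myh2 differed from Myh4 at 17. Elsewhere the genes share longer runs. Myh1 and Myh2 have a run of 268 identical coding bases, Myh6 and Myh7 one of 245, and Myh4 and Myh1 one of 161.

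Stretches of 50 bases that also occur, on either strand, in transcripts of another gene made up 30.5% of Myh1, 24.58% of Myh2, 20.16% of Myh6, 20.04% of Myh7, 18.9% of Myh4, 12.11% of Myh8 and 4.758% of Myh3. Matches to antisense transcripts are included, such as those to Myhas, 6.633% of Myh1. Myh7b had 0% such stretches. Reads within stretches shared on the same strand cannot be assigned to 1 gene by their letters. No source used here says how the authors' counting treated shared reads. The values of all isoforms but Myh7b are uncertain for this reason. The percentages do not bound the error, which also depends on the level of the other gene. Myh4 had at least 2521590 normalized reads in each library, and Myh3 at most 103. Myhas, an antisense transcript (chr11:67211256-67237573) that overlaps the end of Myh1, was counted as a gene of its own, and no source used here gives the strand setting of that counting.

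The 250 bases before the first transcribed base are shown for the 3 fast isoforms and for Myh7, the slow isoform. They come from RefSeq on GRCm38.p6, which had an entry for all 8 genes. Capitals mark matches, on either strand, to the E-box CANNTG, the MCAT motif CATTCC, the TATA motif TATAAA, a MEF2 motif and an SRF CArG box. A TATAAA match on the minus strand lies within each MEF2 match.
Myh4, chr11:67237562-67237811, plus strand: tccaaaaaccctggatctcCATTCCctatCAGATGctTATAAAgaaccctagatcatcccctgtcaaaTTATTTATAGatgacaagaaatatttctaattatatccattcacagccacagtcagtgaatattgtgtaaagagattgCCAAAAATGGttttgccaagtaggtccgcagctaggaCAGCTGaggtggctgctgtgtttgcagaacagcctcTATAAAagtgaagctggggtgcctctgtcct
Myh1, chr11:67199852-67200101, plus strand: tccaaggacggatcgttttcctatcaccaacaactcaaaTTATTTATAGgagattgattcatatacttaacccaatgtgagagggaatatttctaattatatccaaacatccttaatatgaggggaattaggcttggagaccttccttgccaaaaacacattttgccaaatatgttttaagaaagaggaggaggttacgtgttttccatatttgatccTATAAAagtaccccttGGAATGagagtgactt
Myh2, chr11:67170777-67171026, plus strand: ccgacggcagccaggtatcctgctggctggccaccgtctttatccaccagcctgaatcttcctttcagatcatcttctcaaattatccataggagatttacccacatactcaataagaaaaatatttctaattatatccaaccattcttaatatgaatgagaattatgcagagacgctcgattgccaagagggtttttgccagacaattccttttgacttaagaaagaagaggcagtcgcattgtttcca
Myh7, chr14:54994627-54994876, minus strand: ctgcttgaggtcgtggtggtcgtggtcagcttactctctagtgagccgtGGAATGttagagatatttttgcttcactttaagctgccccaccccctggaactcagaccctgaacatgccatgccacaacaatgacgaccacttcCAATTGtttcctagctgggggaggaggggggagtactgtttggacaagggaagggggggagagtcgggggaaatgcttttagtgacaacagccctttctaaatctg
Myh4 and Myh1 held the same 10 letters of the MEF2 match, as did Myh8 in its own window, and Myh4 alone of the 8 held a CArG match. The window of Myh2 held none of the 5 motifs. In the window of Myh1, letters like the last ones of the Myh2 window come before the plus-strand TATAAA match. Bases beyond the end of the Myh2 window were not searched, so the absence holds for this window only. Over 32851 mouse promoter windows of this length, 66.2% held an E-box, 12.6% an MCAT motif, 12.4% a TATA motif, 2.92% the MEF2 motif and 1.47% the CArG box. Among the 4 genes shown, the first base differed between the annotations for Myh4, where RefSeq starts 217 bases before GENCODE, and for Myh1, where it starts 50 bases after it. Myh7 has a second RefSeq start, 77 bases after the one shown, whose window held 2 E-box matches and no MCAT match.

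The mix of myosin heavy chains was compared between muscle with 42.8 to 53.7 normalized reads of Acot2 (Cre) and with 149 to 251 (Loxp). No difference in the mix was detected between Cre and Loxp animals. Myh4 made up at least 89.9% of the myosin heavy chain reads in every library, and the shares of all 8 isoforms overlapped between the groups. Over all tested genes, the levels of the Cre and Loxp libraries did not overlap in 1.92%. Myh7 was high in Cre replicates 3 and 4 but not in Cre replicates 1 and 2. For all 8 isoforms the difference between the mean shares was smaller than the larger SD within a group. In a piece of muscle, fewer fibres of a type and less RNA per fibre cannot be told apart.

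Together the 8 genes took 8.84%, 8.42%, 8.60% and 8.11% of all reads in Cre replicates 1 to 4, against 9.15%, 9.31%, 8.74% and 8.79% in Loxp replicates 1 to 4. Each Cre value but that of replicate 1 lay below every Loxp value. No test was made of this sum over the genes.

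**Figure D1:**
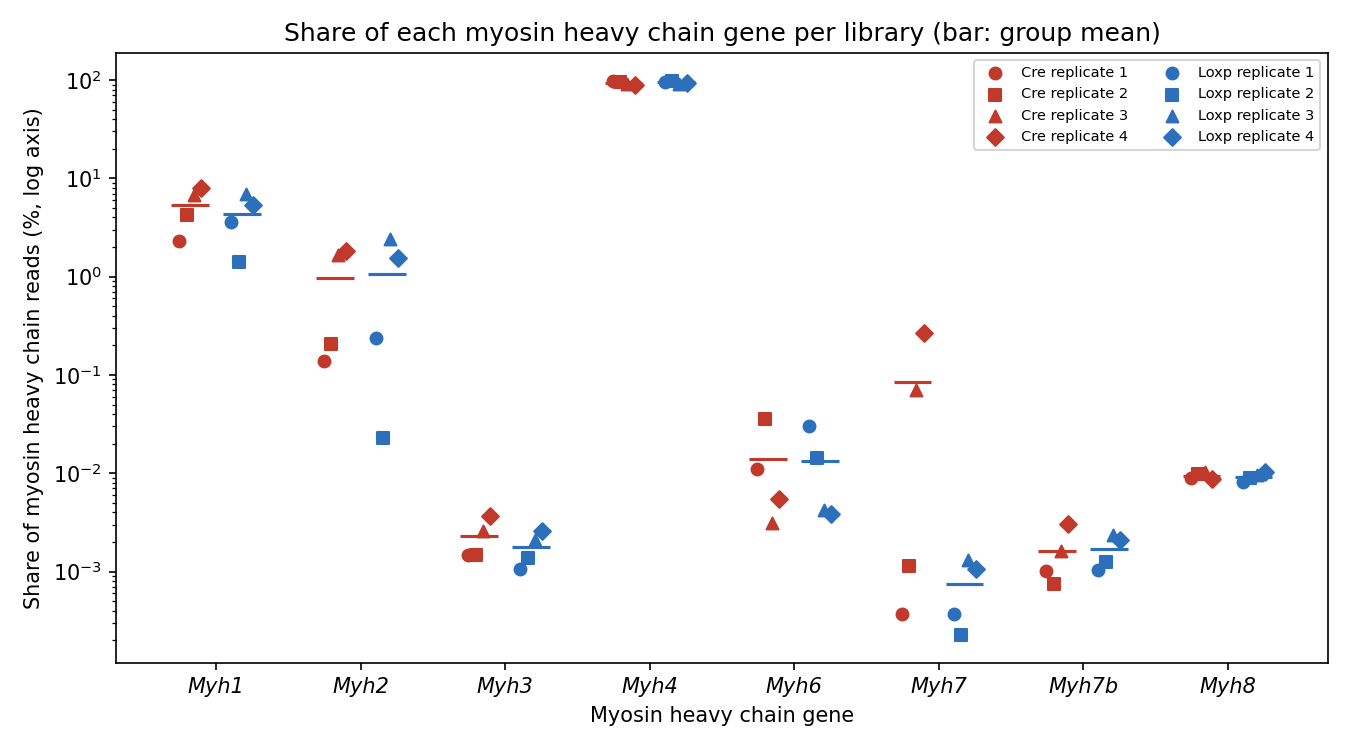
Share of each isoform among the reads of the 8 myosin heavy chain genes, in percent on a log axis, with 1 point per library (Cre in red to the left, Loxp in blue) and a bar at each group mean. Myh4 lies at 89.9% or more in all libraries, the Cre and Loxp points overlap for each gene, and Myh7 in Cre replicates 3 and 4 lies apart from the other 6 libraries.

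Myh4, the fastest isoform, made up 97.5%, 95.5%, 91.5% and 89.9% of the myosin heavy chain reads in Cre replicates 1 to 4. In Loxp replicates 1 to 4 it made up 96.1%, 98.5%, 90.7% and 93.1%. The lowest share was that of a Cre animal and the highest that of a Loxp animal, with the rest mixed. The mean was 93.6% ± 3.54 in Cre and 94.6% ± 3.43 in Loxp libraries (SD, n = 4 each), a difference of -1.02 percentage points (exact two-sided permutation p = 0.657). The sign of this difference turned without Cre replicate 4 (0.222) or without Loxp replicate 2 (0.288). The smallest p that 4 against 4 libraries can give is 0.0286. On the log2 scale, limma gave a fold change of -0.11 for Cre over Loxp (SE 0.27, 95% confidence interval -0.72 to 0.49). That standard error is set mostly by the trend over all genes, since the SD of Myh4 within groups was only 0.13. With reads divided by exon length, the mean share of Myh4 was 94.02% in Cre and 94.98% in Loxp libraries.

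Myh1, the IIx isoform, made up most of the rest. Its share was 2.29%, 4.26%, 6.79% and 8.01% in Cre replicates 1 to 4, against 3.61%, 1.42%, 6.86% and 5.32% in Loxp replicates 1 to 4. The highest value was in a Cre animal and the lowest in a Loxp animal, with overlap between. The means were 5.34% ± 2.56 in Cre and 4.30% ± 2.33 in Loxp libraries (SD, n = 4 each; exact permutation p = 0.571). The log2 fold change was 0.28 (SE 0.44, interval -0.70 to 1.25), and it was -0.15 without Loxp replicate 2, the library with the least Myh1.

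Myh2, the IIa isoform, varied over a far wider range. It had 4408, 6512, 50678 and 51585 normalized reads in Cre replicates 1 to 4, against 7832, 797, 73690 and 50366 in Loxp replicates 1 to 4. Replicates 3 and 4 of both groups were high and replicates 1 and 2 of both groups were low, and the highest and the lowest library were both Loxp. The highest level was 92.5 times the lowest, against 4.58 times for Myh1 and 1.35 times for Myh4. Replicate numbers only name the animals and do not order or pair them.

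The share of Myh2 averaged 0.961% ± 0.913 in Cre and 1.06% ± 1.14 in Loxp libraries (SD, n = 4 each; exact permutation p = 0.943). The log2 fold change had the other sign, 0.42 (SE 1.30, interval -2.43 to 3.28), since a mean of log values gives low libraries more weight. It was -0.89 without Loxp replicate 2. Myh2 also varied relative to Myh1. There were 0.0607, 0.0488, 0.244 and 0.230 reads of Myh2 per read of Myh1 in Cre replicates 1 to 4, against 0.0658, 0.0162, 0.355 and 0.291 in Loxp replicates 1 to 4. The 4 libraries with the most Myh2 were also the 4 with the most Myh1.

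Adipocyte markers summed to 2896, 2520, 3300 and 3387 normalized reads in Cre replicates 1 to 4, against 3994, 20355, 9226 and 2487 in Loxp replicates 1 to 4. Loxp replicate 2, the library lowest in Myh1 and Myh2 and highest in Myh4, was the highest of the 8 in these markers. Loxp replicate 3, the highest in Myh2, was the next. All 7 listed adipocyte genes were tested, 7 had a fold change below 0, 4 had an unadjusted p under 0.05 in limma, and none passed after adjustment. Of all tested genes, 2.91% had an unadjusted p under 0.05, and 51.7% had a fold change above 0. Their part in the isoform values was not tested.

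Myh7, the slow isoform, was near the bottom of the list in 6 libraries. It had 11.8, 35.5, 2133 and 7430 normalized reads in Cre replicates 1 to 4, against 12.1, 7.83, 40.1 and 34.6 in Loxp replicates 1 to 4. Those values rest on 14, 29, 1868 and 10490 reads in the Cre libraries and on 12, 7, 42 and 32 in the Loxp libraries. Cre replicates 1 and 2 lay inside the range of the Loxp libraries, and Cre replicates 3 and 4 lay far above it.

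As a share of myosin heavy chain reads, Myh7 reached 0.265% in Cre replicate 4 (95% exact Clopper-Pearson interval 0.260% to 0.270%) and 0.0698% in Cre replicate 3 (0.0667% to 0.0730%). The largest Loxp share was 0.00133% in replicate 3 (0.000956% to 0.00179%). These intervals cover counting error only. The group means were 0.0840% ± 0.125 in Cre and 0.000746% ± 0.000533 in Loxp libraries (SD, n = 4 each; exact permutation p = 0.2).

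The limma log2 fold change of Myh7 was 3.85 (SE 1.69, interval 0.15 to 7.56), with an unadjusted p = 0.0430 and an adjusted p = 0.9995. It was 0.09 (interval -1.51 to 1.69) without Cre replicates 3 and 4. Without Cre replicate 4 alone it was 2.30. The difference in group means thus rested on 2 of the 4 Cre animals and did not pass the test.

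The partners of slow myosin were highest in the same animals. The list held light chains, troponins and other proteins of slow fibres, 12 genes in all. In 8 of the 12, Cre replicates 3 and 4 were the highest libraries. The 12 genes summed to 2791, 4123, 8836 and 16260 normalized reads in Cre replicates 1 to 4, against 3620, 2614, 6212 and 5656 in Loxp replicates 1 to 4. On the log2 scale all 12 fold changes were positive (median 0.93), while 51.7% of all tested genes lay above 0 and their median was 0.0049. None of the 12 passed the test, and limma gave 0 of the 12 a p under 0.05 before adjustment. The same held for the lists of fast partners, oxidative genes, glycolytic enzymes, thick filament partners, myosin folding and turnover, regulators and regeneration given further on. The smallest p values were those of Atp2a2, the slow calcium pump (0.57, SE 0.28), Tpm3, slow tropomyosin (0.70, SE 0.39), Myl2, the slow regulatory light chain (1.79, SE 1.00), and Myl3, the slow essential light chain (2.12, SE 1.22), as log2 fold changes. The unadjusted p was 0.0673 for Atp2a2 and 0.111 for Myl3.

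Myh6, the alpha isoform of the heart, was found at a low level in all animals. It had 352, 1125, 95.9 and 154 normalized reads in Cre replicates 1 to 4, against 1009, 498, 127 and 127 in Loxp replicates 1 to 4. It was highest in Cre replicate 2 and Loxp replicate 1, and the 4 libraries highest in Myh6 were the 4 lowest in Myh2. The share of Myh6 averaged 0.0139% ± 0.0150 in Cre and 0.0133% ± 0.0125 in Loxp libraries (SD, n = 4 each; exact permutation p = 0.914). The log2 fold change was -0.12 (SE 0.79, interval -1.86 to 1.63), of the other sign than the difference in mean shares. Without Loxp replicate 1 it was 0.46.

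Some other genes of heart muscle were high in the same animals as Myh6. Not all were: Tnnc1, troponin C of slow and heart muscle, was highest in Cre replicate 4. Actc1, cardiac actin, was highest in Loxp replicate 2. The 7 further heart markers summed to 257, 729, 95.9 and 56.7 normalized reads in Cre replicates 1 to 4, against 730, 267, 64.0 and 34.6 in Loxp replicates 1 to 4. Cre replicate 2 and Loxp replicate 1 were the 2 highest libraries for 4 of the 7, namely Tnni3 (cardiac troponin I), Tnnt2 (cardiac troponin T), Mybpc3 (cardiac myosin-binding protein C) and Ryr2 (the cardiac calcium release channel). Ryr2 had 86.7, 315, 13.7 and 9.92 normalized reads in Cre replicates 1 to 4, against 282, 120, 21.97 and 4.33 in Loxp replicates 1 to 4. Per 100 reads of Myh6 there were 24.6, 28.0, 14.3 and 6.45 reads of Ryr2 in Cre replicates 1 to 4, against 27.9, 24.0, 17.3 and 3.42 in Loxp replicates 1 to 4. The ratio of Ryr2 to Myh6 was thus alike in the 4 libraries with the most Myh6 and lower in the rest. In those 4, reads per 100 of Myh6 varied more for Tnni3 (5.33 to 8.37) and Mybpc3 (6.52 to 11.4). In the rest Tnni3 was lower, while Mybpc3 reached 6.77 in Loxp replicate 3. Those libraries held only 1.14 to 5.41 normalized reads of Tnni3, 0 to 8.60 of Mybpc3 and 4.33 to 21.97 of Ryr2. Counting error is thus large in their ratios. The atrial and natriuretic markers were at or near 0: Myl7 reached 4.89 normalized reads in Cre replicate 2 and was at 0 in the other 7 libraries, Nppb reached 1.01, and Nppa reached 7.04. The part of heart genes in the values of Myh6 was not tested.

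Myh3, the embryonic isoform, had 46.3, 46.5, 79.9 and 103 normalized reads in Cre replicates 1 to 4, against 35.2, 47.0, 63.0 and 83.3 in Loxp replicates 1 to 4. The groups overlapped, with a log2 fold change of 0.25 (SE 0.32, interval -0.46 to 0.96), which leaving out 1 library moved to between 0.033 and 0.45. The same 4 libraries were highest in Myh3 as in Myh2. Myh7b had 31.99, 23.2, 49.1 and 86.4 normalized reads in Cre replicates 1 to 4, against 34.2, 43.6, 70.7 and 68.2 in Loxp replicates 1 to 4. Its 4 highest libraries were again those of Myh2, and its log2 fold change was -0.29 (SE 0.39, interval -1.14 to 0.56), which leaving out 1 library moved to between -0.63 (without Cre replicate 4) and -0.0099 (without Cre replicate 2). Without Cre replicates 3 and 4 that of Myh7b was -0.90 (interval -1.71 to -0.095, adjusted p = 0.998 in limma).

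Myh8, the perinatal isoform, was the steadiest of the low isoforms. It had 284, 309, 313 and 248 normalized reads in Cre replicates 1 to 4, against 269, 310, 291 and 335 in Loxp replicates 1 to 4. Its highest library was 1.35 times its lowest, and its log2 fold change was -0.064 (SE 0.11, interval -0.30 to 0.17). Per 1000000 reads of Myh4 there were 91.7, 103, 112 and 98.3 reads of Myh8 in Cre replicates 1 to 4, against 84.8, 91.2, 106 and 111 in Loxp replicates 1 to 4. The ratio of Myh8 to Myh4 thus stayed between 84.8 and 112 in all 8 libraries, and 4.808% of the 50-base stretches of Myh8 also occur in Myh4. Whether reads of Myh4 were counted under Myh8 was not tested.

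Levels of different isoforms were compared per kilobase of the union of their exons. Myh4 had 473839 ± 41873 normalized reads per kilobase in Cre and 512898 ± 45643 in Loxp libraries (SD, n = 4 each). Myh1 followed with 25122 ± 11054 in Cre and 21596 ± 10877 in Loxp libraries, and Myh2 with 3965 ± 3697 in Cre and 4648 ± 4872 in Loxp libraries. Within each of the 8 libraries Myh4 lay above Myh1 and Myh1 above Myh2, although the ranges of Myh1 (7723 to 35370) and Myh2 (112 to 10325) overlapped across libraries.

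Below these, the order depended on the animal. Myh6 ran from 14.3 to 167 normalized reads per kilobase, Myh8 from 21.1 to 28.5, Myh3 from 5.81 to 17.0 and Myh7b from 3.502 to 13.03. Myh6 overlapped with Myh8 and Myh3, and Myh3 with Myh7b, while every value of Myh8 lay above every value of Myh3. Myh7 ran from 0.909 to 862 and came next after Myh2 in Cre replicates 3 and 4 but was the lowest in the rest, apart from Cre replicate 2, where Myh7b was lower. The exon unions of Myh7 (8616 bases) and Myh8 (11772 bases) are longer than those of the other isoforms (6016 to 7137 bases). Their coding sequences are not longer (5808 and 5814 bases), and extra bases with few reads would lower their values per kilobase.

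None of the 8 isoforms had an adjusted p under 0.05 in limma, and 2 of the 13638 tested genes (0.0147%) did, Acot2 and Kbtbd12. One isoform, Myh7, had an unadjusted p under 0.05, against 2.91% of all tested genes. In none of the 8 did the Cre and Loxp libraries separate, against 1.92% of all tested genes. The log2 fold change lay above 0 in 4 of the 8, Myh1, Myh2, Myh3 and Myh7, against 51.7% of all tested genes. Among these 4, the sign turned without Cre replicates 3 and 4 for Myh1, Myh2 and Myh3.

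**Figure D2:**
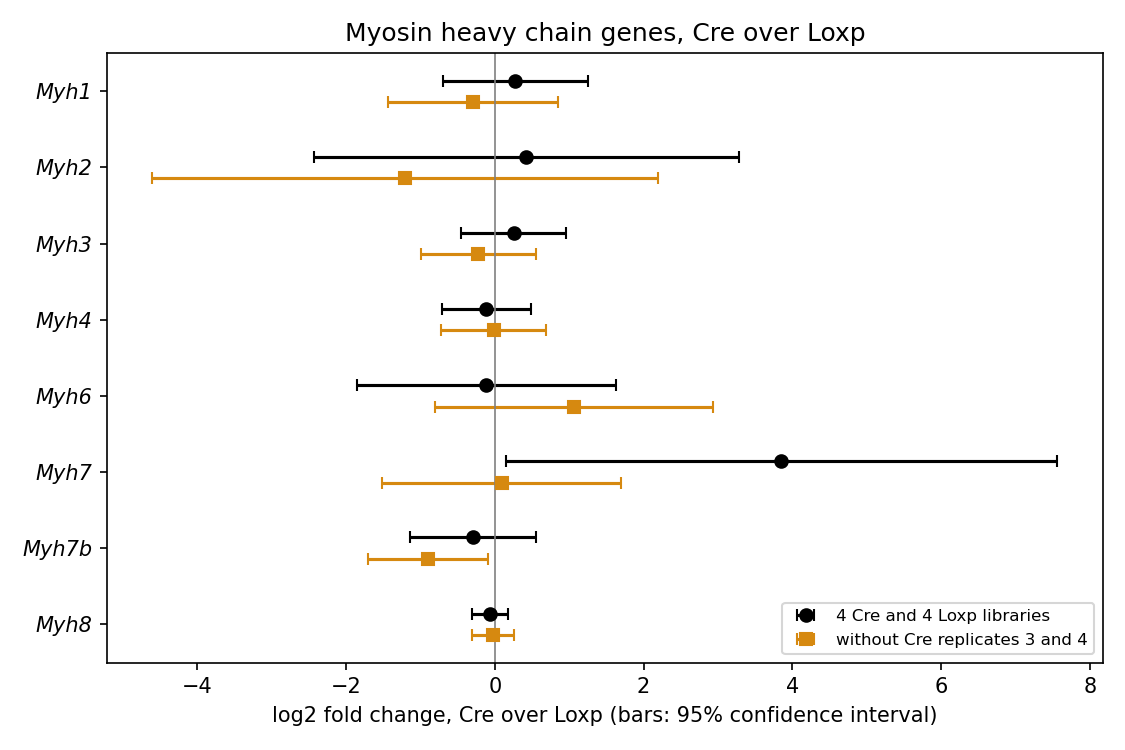
The log2 fold change of each isoform, Cre over Loxp, with its 95% confidence interval from limma, with all libraries (black) and without Cre replicates 3 and 4 (orange). With all libraries only the interval of Myh7 (0.15 to 7.56) lies above 0, and without the 2 Cre animals its estimate is 0.09.

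The spread between animals of the same group was wide for some of the isoforms. The SD of log2 values within groups exceeded 1 for 3 of the 8 isoforms, against 1.82% of all tested genes. Myh7, with 3.24, had the largest SD of the 13638 genes, Myh2 (2.5) ranked 9 and Myh6 (1.52) ranked 53. This SD pools both groups, and log2 values of Myh7 ran from 3.68 to 12.86 in Cre but from 3.14 to 5.36 in Loxp libraries. Myh1 (0.84), Myh7b (0.67) and Myh3 (0.55) were also above the median of all tested genes, 0.18. Myh8 (0.15) and Myh4 (0.13) lay below that median. A wide spread was not particular to the isoforms: among the slow partners it was 2.35 for Myl3 and 1.92 for Myl2, and Myh13 had 1.14.

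**Figure D3:**
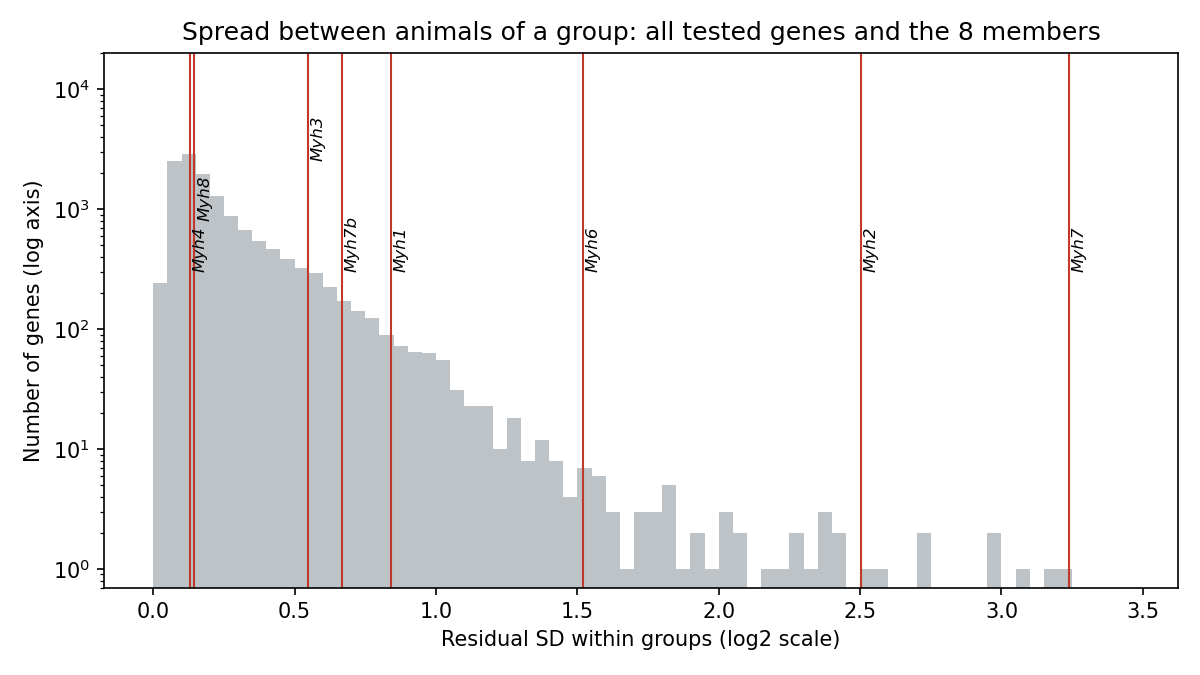
Histogram of the within-group SD of log2 values for the 13638 tested genes, with the number of genes on a log axis and a red line at each of the 8 isoforms. Myh4 and Myh8 lie under the bulk of the genes, and Myh6, Myh2 and Myh7 lie in the sparse right tail.

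For the 3 isoforms whose SD over the 8 libraries was above 1 (true of 1.77% of all tested genes), the 5 genes with the most similar profile were found. Likeness was the root-mean-square difference of log2 values, each centred on its mean over the 8 libraries. This describes these 8 libraries and carries no test. The nearest genes of Myh2 were Myom3, an M-band protein (0.19), Myoz2, a Z-disc protein of slow fibres (0.55), Csrp3, the muscle LIM protein (0.71), Ankrd2, a stretch-responsive ankyrin-repeat protein (0.72), and Bdh1, an enzyme of ketone body use (0.76). Myom3 had 91.8, 104, 861 and 1139 normalized reads in Cre replicates 1 to 4, against 116, 13.4, 1347 and 1075 in Loxp replicates 1 to 4. Per 100 reads of Myh2 that was 2.08, 1.60, 1.70 and 2.21 reads of Myom3 in Cre replicates 1 to 4, against 1.48, 1.69, 1.83 and 2.13 in Loxp replicates 1 to 4. The ratio of Myom3 to Myh2 lay between 1.48 and 2.21 while Myh2 itself varied 92.5-fold. Myom3 was chosen for its likeness to Myh2 in these same libraries, so the ratio restates that choice.

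The nearest genes of Myh7 were all slow fibre proteins, though less close: Tnnt1 (slow troponin T, 1.40), Tnni1 (slow troponin I, 1.47), Tnnc1 (troponin C of slow and heart muscle, 1.49), Myl2 (1.66) and Myl3 (1.92). Tnnt1 had 13.5, 19.6, 420 and 1161 normalized reads in Cre replicates 1 to 4, against 19.1, 13.4, 85 and 67.1 in Loxp replicates 1 to 4. Per 100 reads of Myh7 there were 114, 55.2, 19.7 and 15.6 reads of Tnnt1 in Cre replicates 1 to 4, against 158, 171, 212 and 194 in Loxp replicates 1 to 4. Tnnt1, chosen for its likeness to Myh7, followed it in direction over a smaller range.

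The nearest genes of Myh6 were Mylk3 (cardiac myosin light chain kinase, 0.57), Tnni3 (0.60), Tnnt2 (0.64), Pln (phospholamban, the inhibitor of the slow and cardiac calcium pump, 0.73) and 4632418H02Rik (0.74). Pln had 74.9, 221, 77.6 and 70.8 normalized reads in Cre replicates 1 to 4, against 206, 98.5, 65.9 and 41.1 in Loxp replicates 1 to 4. Although a partner of slow muscle, it was highest in the animals with the most Myh6 and not in those with the most Myh7.

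**Figure D4:**
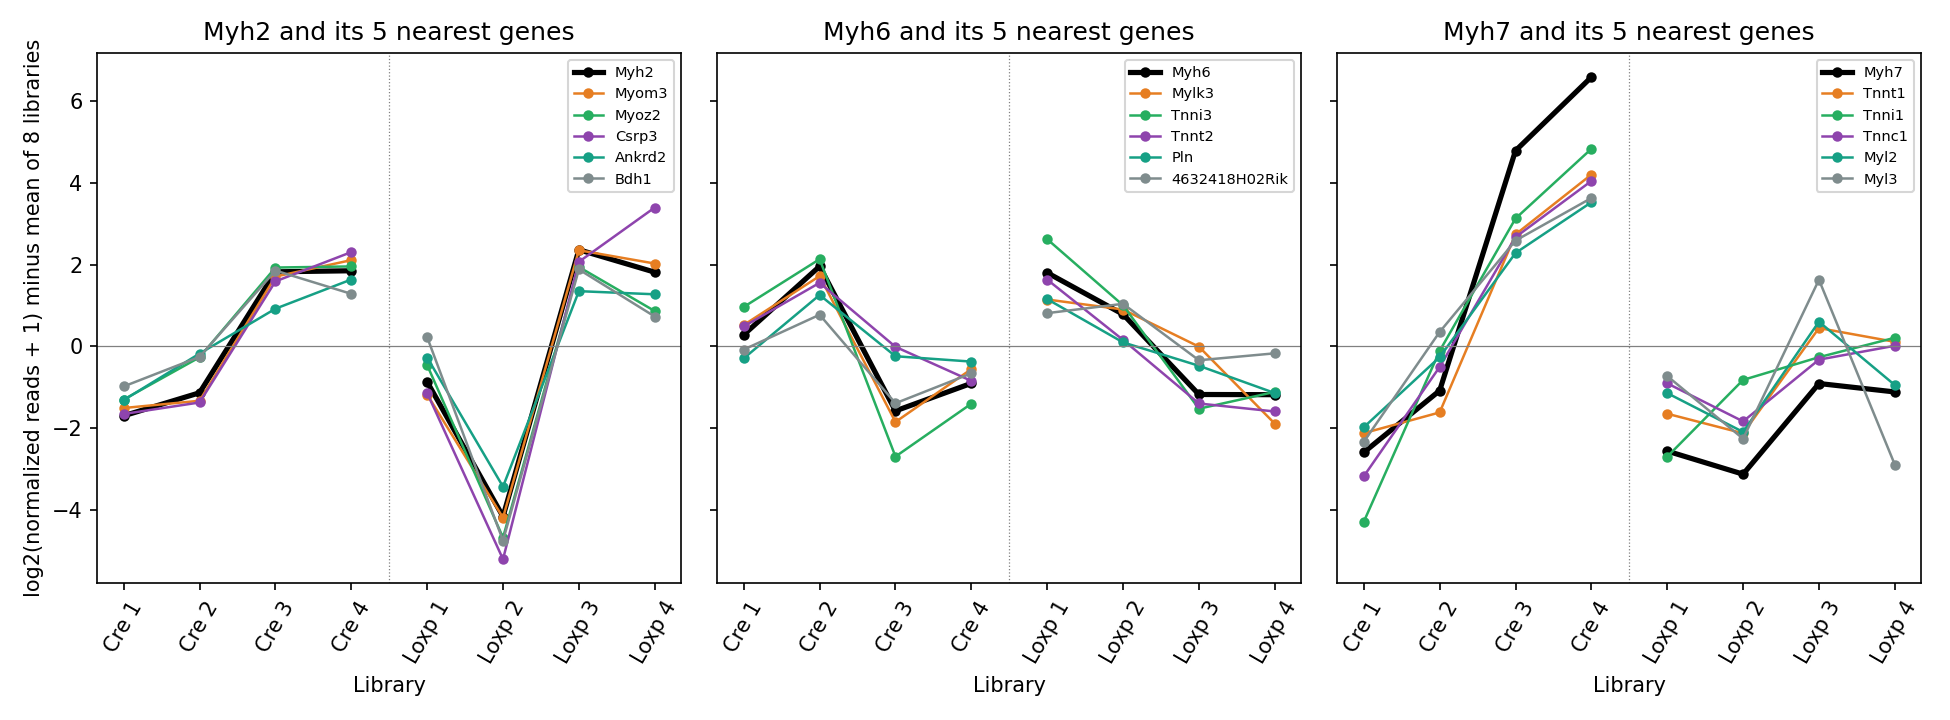
Profiles of Myh2, Myh6 and Myh7 (black) and the 5 nearest genes of each, as log2(normalized reads + 1) minus the gene's mean over the 8 libraries, with the Cre libraries left of the dotted line. Myh2 is high in replicates 3 and 4 of both groups and lowest in Loxp replicate 2, Myh6 is high in Cre replicate 2 and Loxp replicate 1, and Myh7 is high in Cre replicates 3 and 4.

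Genes of oxidative fibres were mostly high in the animals high in Myh2. In 9 of the 12 listed genes the 4 highest libraries were those of Myh2, and 10 of the 12 were lowest in Loxp replicate 2. Fabp3, the muscle fatty acid-binding protein, had 2653, 3094, 6047 and 5493 normalized reads in Cre replicates 1 to 4, against 2559, 1873, 5828 and 3968 in Loxp replicates 1 to 4. Between the groups, 10 of the 12 had a fold change above 0 and 2 below, with a median of 0.12 on the log2 scale, and none passed. The named log2 fold changes were 0.11 for Cox6a2, a subunit of cytochrome oxidase (SE 0.11), 0.32 for Fabp3 (SE 0.34) and 0.29 for Idh2, mitochondrial isocitrate dehydrogenase (SE 0.34).

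The fast partners of Myh4 lay close to 0 as a group. Of 13 listed, 7 lay above 0 and 6 below, the median log2 fold change was 0.0017, and none passed. Mybpc2, fast myosin-binding protein C, was at -0.089 (SE 0.13), Atp2a1, the fast calcium pump, at -0.076 (SE 0.17), Myl1, the fast essential light chain, at -0.054 (SE 0.15) and Actn3, the fast Z-disc alpha-actinin, at -0.035 (SE 0.14). Of 12 glycolytic enzymes of white fibres, 5 lay above 0 and 7 below (median -0.022), and none passed. Gpd1 was at -0.087 (SE 0.092), Pygm, muscle glycogen phosphorylase, at -0.070 (SE 0.11), Pgk1 at -0.042 (SE 0.070) and Gapdh at -0.045 (SE 0.099).

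Among 10 proteins that bind the thick filament or its M-band, 3 lay above 0 and 7 below (median -0.057), and none passed. Mybph had the smallest p, with a log2 fold change of -0.65 (SE 0.42), and Mybpc1, the slow myosin-binding protein C, was at 0.43 (SE 0.52). Mybpc1 had 19233, 21308, 35447 and 49409 normalized reads in Cre replicates 1 to 4, against 16211, 7203, 47716 and 39108 in Loxp replicates 1 to 4, with replicates 3 and 4 of both groups again high. Mypn, myopalladin, was at -0.080 (SE 0.086).

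Of 10 genes of myosin folding and turnover, 5 lay above 0 and 5 below (median -0.0053), and none passed. Trim63, the ubiquitin ligase MuRF1 whose targets include myosin heavy chain, was at -0.16 (SE 0.14), Hspa8 at 0.065 (SE 0.074), Fbxo32 at -0.090 (SE 0.12) and Hsp90ab1 at -0.037 (SE 0.063).

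Regulators of the choice of isoform, among them Eya1, Tbx15, Sox6, Prox1, the Mef2 and Nfat families and calcineurin, showed no change that passed. Of 36 tested, 17 lay above 0 and 19 below (median -0.0045). The smallest p values were those of Nfatc2, a calcineurin-controlled factor (log2 fold change -0.13, SE 0.078), Rcan1, a calcineurin inhibitor (-0.19, SE 0.11), Ppargc1a, a coactivator of mitochondrial genes (0.12, SE 0.085), and Myog, a myogenic factor (-0.27, SE 0.19). Of 11 tested regeneration and denervation genes, 4 lay above 0 and 7 below (median -0.019), and none passed. Chrnd, the delta subunit of the acetylcholine receptor, was at 0.61 (SE 0.33) and Actc1, cardiac actin, at -0.46 (SE 0.33). Actc1 was highest in Loxp replicate 2, with 36809 normalized reads, against 9267 to 16929 in the other Loxp libraries.

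Of the further myosin heavy chain genes, 5 were tested, all 5 lay below 0 (median -0.078) and none passed. Myh11, of smooth muscle, was at -0.29 (SE 0.15), Myh14 at -0.069 (SE 0.078), Myh9, a nonmuscle isoform, at -0.078 (SE 0.089) and Myh13, the extraocular isoform next to Myh8 on chromosome 11, at -0.20 (SE 0.60). Myh13 had 65.7, 61.1, 140 and 307 normalized reads in Cre replicates 1 to 4, against 58.3, 71.6, 278 and 262 in Loxp replicates 1 to 4, and its 4 highest libraries were those of Myh2.

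Noncoding RNAs of these loci had the following values. The hairpins of Mir208a, Mir208b and Mir499, which lie within Myh6, Myh7 and Myh7b, were listed at 0 in all libraries of this RNA-seq. The long intergenic RNA 2310065F04Rik, between Myh3 and Myh2, had 2345, 2268, 2589 and 2130 normalized reads in Cre replicates 1 to 4, against 3123, 2141, 2476 and 2247 in Loxp replicates 1 to 4, with overlapping groups. Mhrt, antisense to Myh7, had 10.1, 15.9, 3.43 and 1.42 in Cre replicates 1 to 4, against 11.1, 16.8, 0 and 0 in Loxp replicates 1 to 4, and so was higher in the 4 libraries with more Myh6. Of the 2 that were tested, 1 lay above 0 and 1 below. Myhas, chosen after its values were seen, had 1897, 2019, 1473 and 1617 in Cre replicates 1 to 4, against 1571, 1637, 1423 and 1695 in Loxp replicates 1 to 4.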

How the data were processed

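RNA from the white quadriceps of 8 animals (4 Cre, 4 Loxp) was sequenced, and groups were taken from the sample titles. The deposited table holds log2 values, taken after the authors scaled each library's read counts by a single factor and 1 was added. The scale was inferred from the table itself: 100% of the values below 1000 lay, once unlogged, within 0.1 of a whole multiple of the worth of 1 read. The submitters' processing notes name DESeq2, HTSeq, STAR, cutadapt, FastQC and GRCm38 without roles or versions, and no source used here names the gene annotation.

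The log was undone (2 to the power of the value, minus 1), and each isoform was divided by the sum of the 8. Shares were compared by exact permutation over the 70 relabellings. Genes reaching 10 normalized reads in 4 or more of the 8 libraries were fitted with limma 3.58.1 in R 4.3.3 (variance trend, Benjamini-Hochberg adjustment, threshold 0.05), which was tested on simulated data. The simulation gave all genes the same spread between libraries beyond counting error, so it does not cover genes as uneven as Myh7. Fold changes carry the pseudocount of 1 and understate those of low genes. Alternatives were pseudocounts of 0.5 and 10, no filter, TMM scaling, limma-voom on recovered reads, library weights, a block of adjacent animal numbers, other share scales and leaving out libraries. Sequence stretches and coding identities came from GENCODE M21, and promoters from RefSeq. Named genes are the isoforms, the 5 genes nearest to each isoform with an SD above 1, and up to 4 genes with the smallest p in each list of muscle genes, 3 of which are not reported here although list counts include them. Cell type markers were given as sums. Ryr2, Mybpc3, Myl7, Nppa, Nppb, Kbtbd12, Thbs4 and Chodl were named after their values were seen. The members and lists were chosen with earlier results of these data known. Libraries of a group differed by far more than sampling noise (chi-square per gene of 26.0 or more), so each counted as 1 replicate. The labels give no batch. The depth of 30415426 to 48834264 reads per library gives Myh7 only 7 to 42 reads in 6 libraries, so counting error is large there.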

Additional observations from a re-analysis of the deposited data

How the results depend on the processing

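None of the 8 isoforms had an adjusted p under 0.05 in limma under any of the 17 alternatives. Of the isoform shares and log2 fold changes, those of Myh7 kept their direction in all alternatives, and the log2 fold changes of Myh4 and Myh7b did too. The exact permutation p for the share of Myh7 ran from 0.0571 to 0.933. Its difference was 0.0230 percentage points without Cre replicate 4, 0.0586 with reads divided by exon length and 5.95e-06 without Cre replicates 3 and 4. Without those 2 Cre libraries together, the differences in share were -1.03 percentage points for Myh1, -0.000297 for Myh3 and 1.91 for Myh4, and the log2 fold changes were -0.29 for Myh1, -1.20 for Myh2, -0.22 for Myh3 and 1.07 for Myh6, all of turned sign. On the log2 odds scale the share difference was 0.52 for Myh2 and -0.018 for Myh6. With library weights the log2 fold changes were -0.018 for Myh1, -0.37 for Myh2 and 0.20 for Myh6. Without Cre replicate 2 and Loxp replicate 1 together, an alternative chosen after seeing the data, the share differences were -0.000937 for Myh6 and -0.000302 for Myh8, and 1 gene was called where the full set gave 2. The cause of these turns was not tested, and none of the values concerned passed a test. Exact permutation of 2 Cre against 4 Loxp libraries gives p = 0.0667 at the lowest, so no share could pass 0.05 there.

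Leaving out 1 library at a time, the share differences ran from -0.446 to 0.358 percentage points for Myh2, from -2.34 to 0.288 for Myh4, from -0.00671 to 0.00640 for Myh6, from -0.000565 to 0.000215 for Myh7b and from -0.000167 to 0.000553 for Myh8. The log2 fold changes ran from -0.15 to 0.61 for Myh1, from -0.89 to 1.28 for Myh2, from 0.033 to 0.45 for Myh3, from -0.17 to -0.057 for Myh4, from -0.79 to 0.46 for Myh6, from 2.30 to 5.36 for Myh7, from -0.63 to -0.0099 for Myh7b and from -0.12 to 0.0064 for Myh8. With adjacent animal numbers as a block, the deviations of the 4 pairs correlated at -0.081, 0.15, 0.19 and -0.083. Those of the other pairs ran from -0.22 to 0.19. So few pairs cannot decide whether the numbers pair the samples. The block changed no call, 2 genes and none of the isoforms were called, and the share of Myh7 gave an exact sign-flip p = 0.25, where 4 pairs allow 0.125 at the lowest. edgeR and DESeq2 were not run; recovered reads were tested with limma-voom alone.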

Other observations

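Markers of further cell types were summed per library, in normalized reads. Tendon markers ran from 8233 to 14642 in Cre and from 5916 to 9614 in Loxp libraries, and 6 of 6 genes had a log2 fold change above 0 (median 0.54). Fibroblast markers ran from 41041 to 70358 in Cre and from 44294 to 61026 in Loxp libraries, endothelial markers from 5320 to 7723 in Cre and from 6330 to 7242 in Loxp, and macrophage markers from 1080 to 2433 in Cre and from 1560 to 2201 in Loxp. Smooth muscle markers ran from 3625 to 5543 in Cre and from 4707 to 5486 in Loxp libraries, satellite cell markers from 1122 to 1238 in Cre and from 1039 to 1189 in Loxp, nerve and Schwann cell markers from 913 to 1791 in Cre and from 1100 to 1813 in Loxp, and blood markers from 1593 to 2511 in Cre and from 1647 to 2603 in Loxp. No gene of these lists had an adjusted p under 0.05 in limma, and an unadjusted p under 0.05 was found for 3 tendon genes, 1 smooth muscle gene and 1 satellite cell gene, against 2.91% of all tested genes. The Cre and Loxp libraries did not overlap for 1 tendon gene, Thbs4, and 1 satellite cell gene, Chodl, against 1.92% of all tested genes.

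The 2 animals highest in Myh6 and in 4 of the 7 further heart markers, Cre replicate 2 and Loxp replicate 1, carry the adjacent numbers 3152 and 3153. The labels give no meaning to these numbers. Cre replicate 4 and Loxp replicate 2, numbered 3097 and 3098, were the library highest in Myh7 and the one lowest in Myh7.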
